A study of Mus musculus with 8 samples.

Results

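The 7 genes described here, Adgre1, Vcam1, Spic, Slc40a1, Hmox1, Cd163 and Cd5l, are known from red pulp macrophages of the spleen and from the handling of iron and heme. Every probe set whose gene name on the array platform is one of these symbols was taken, which gave 11 of the 45101 probe sets and 7 of the 8763 genes tested. The cells were conventional dendritic cells sorted from the spleens of untreated female C57BL/6 mice, either wild type (WT) or RAG2-/-, and either CD8α- or CD8α+. RAG2 is needed to assemble antigen receptor genes, so RAG2-/- mice lack mature T and B lymphocytes in every tissue and from birth, but keep macrophages, monocytes, granulocytes, natural killer cells and dendritic cells. The sample labels give an age of 10 weeks for every group, while the text on the design gives 8 to 10 weeks. The study asked how lymphocytes bear on splenic dendritic cells. Affymetrix arrays with biotin-labelled total RNA gave 8 samples, 2 in each of 4 groups: WT CD8α-, WT CD8α+, RAG2-/- CD8α- and RAG2-/- CD8α+.

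Red pulp macrophages line the open blood spaces of the spleen, engulf aged red blood cells and return their iron to the blood. Free hemoglobin, bound to haptoglobin, is taken up through the receptor CD163, heme is opened by heme oxygenase 1 (Hmox1), and the freed iron leaves through ferroportin (Slc40a1), the only known iron exporter of mammalian cells. The Ets family transcription factor Spi-C (Spic) is needed for these macrophages to form and is induced by heme. The adhesion receptor Adgre1, vascular cell adhesion molecule 1 (Vcam1) and the secreted scavenger receptor protein Cd5l are among their classical markers. Adgre1 and Vcam1 are not limited to macrophages.

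RefSeq promoter windows on GRCm38.p6 were at hand for 3 of the 7 genes. They are shown because Cd163 and Cd5l were below the level of a measured value on every WT array and above it on every RAG2-/- array, and because Spic encodes the transcription factor of the set. Each is the 250 bases before the annotated start, 5′ to 3′ on the strand of the gene, at chr6:124304401-124304650 (plus strand), chr3:87357631-87357880 (plus strand) and chr10:88683024-88683273 (minus strand), with capitals for a motif match.
Cd163: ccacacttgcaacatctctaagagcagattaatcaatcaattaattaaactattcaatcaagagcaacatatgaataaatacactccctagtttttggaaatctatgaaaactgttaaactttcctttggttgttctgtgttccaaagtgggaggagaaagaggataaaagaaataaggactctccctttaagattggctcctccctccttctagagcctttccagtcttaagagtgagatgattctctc
Cd5l: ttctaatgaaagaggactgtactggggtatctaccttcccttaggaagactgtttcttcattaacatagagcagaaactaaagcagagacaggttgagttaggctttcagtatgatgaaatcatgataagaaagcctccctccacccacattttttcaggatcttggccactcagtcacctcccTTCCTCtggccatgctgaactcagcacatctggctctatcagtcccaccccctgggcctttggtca
Spic: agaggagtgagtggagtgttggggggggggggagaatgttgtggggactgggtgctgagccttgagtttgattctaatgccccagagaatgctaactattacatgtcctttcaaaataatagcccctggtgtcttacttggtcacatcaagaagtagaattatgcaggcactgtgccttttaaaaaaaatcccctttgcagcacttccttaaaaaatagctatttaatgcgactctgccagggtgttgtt
The letters searched on both strands were GAGGAA (the core bound by PU.1 and related Ets factors), TGACNNNGC (the antioxidant response core), GGGNTTTCC (kappaB), TGGGAA (RBPJ) and CACGTG (E-box). The only match was TTCCTC in the Cd5l window, the minus strand form of GAGGAA, 66 to 61 bases before the start. Of 32851 RefSeq promoter windows of this length, 23.3% held GAGGAA on either strand, 10.2% the antioxidant core, 1.46% the kappaB letters, 21.6% the RBPJ core and 6.02% the E-box, so a single match in 3 windows is a description of these letters and no more.

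Levels below are deposited log2 expression values, and differences are log2 changes, where a change of 1 is a doubling. A log2 value of 5 was taken as the lowest measured level, and a change was called at a Benjamini-Hochberg adjusted p under 0.05 from a limma fit over the 8763 genes. The sorting marker Cd8a stood at 11.73 to 12.51 on the 4 CD8α+ arrays and 5.80 to 7.70 on the 4 CD8α- arrays. The dendritic cell genes Flt3, Zbtb46 and Itgax stood between 10.27 and 14.29 on all 8 arrays. The genotypes appear to have been normalized apart: all 4 RAG2-/- arrays share a lowest value of 2.23, held by 18217 to 18893 probe sets, while the lowest WT value, 1.16 to 1.17, occurs once per array, and array medians were 2.33 to 2.38 against 2.97 to 3.06. Genotype and processing therefore cannot be told apart in any difference between genotypes. Among the RAG2-/- arrays, CD8α- replicate 2 and CD8α+ replicate 1 held neutrophil transcripts (S100a8, S100a9 and Ngp at 9.27 to 11.65, against 3.03 to 5.19 on the other 2), and CD8α- replicate 2 and CD8α+ replicate 2 held more of the red cell transcripts Slc4a1 and Car2 (8.82 to 10.29, and at most 7.52 on the other 2). On the red cell list 10 genes had a probe set of their own, and 7 of these, hemoglobin Hba-a1 among them, were below 5 on all 8 arrays. The part of the neutrophil and red cell transcripts in the results below was not tested beyond leaving the arrays out. In bulk RNA, fewer cells of a type and less RNA per cell cannot be told apart.

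In RAG2-/- cells the iron exporter Slc40a1, the heme enzyme Hmox1, the hemoglobin receptor Cd163 and Cd5l were far above WT in both subsets. Adgre1 was moderately above WT, as was Spic by its brighter probe set alone. By its brightest probe set, Vcam1 was called higher in CD8α- cells, and its change in CD8α+ cells was not called. Of the 4 genes measured at 5 or more on every WT array, Adgre1, Vcam1, Spic and Slc40a1, all 4 were called higher in RAG2-/- CD8α- cells, where 23.4% of all genes tested were called higher and 17.1% lower. In CD8α+ cells 3 of these 4 were called higher, against 20.8% of all genes higher and 16.1% lower. Of all calls, 57.7% in CD8α- and 56.4% in CD8α+ cells were higher, and 90.5% and 91.3% with each array centred on its median, which moved the median change of all genes to 0.81 and 0.78. The other 3, Hmox1, Cd163 and Cd5l, had WT means below 5 and passed the filter almost wholly through RAG2-/- arrays, so they had to differ between genotypes to be kept, and their genotype differences are given as values with no test. Over the 4 measured genes the median change was 1.40 in CD8α- and 1.39 in CD8α+ cells, beside medians of 0.14 and 0.09 over all genes tested. On leaving out single arrays, 2 to 4 of the 4 were called in CD8α- and 2 to 3 in CD8α+ cells. Without the arrays with neutrophil transcripts 3 and 2 were called, and without those with red cell transcripts 3 and 3. With the mean of the probe sets of a gene 3 and 2 were called, as Spic was lost in both subsets.

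Between the subsets, a single gene of the set differed in WT and a pair in the knockout. Adgre1 was lower in CD8α+ cells of both genotypes, and Cd163 was lower in CD8α+ cells of RAG2-/- mice. Called lower in CD8α+ cells were 7.87% of all genes in WT and 10.7% in RAG2-/- cells, and called higher 9.23% and 11.1%. Called higher in CD8α+ cells by limma were 0 of the 7. In either direction, 2 of the 7 in WT and 3 in the knockout had an unadjusted p under 0.05. Of the 8763 genes tested, 2606 in WT and 3059 in the knockout had such a p. Vcam1 in WT was called under other settings (limma, adjusted p = 0.0390 with a filter at log2 7 and 0.0245 with limma-trend). The median change of the 7 genes from CD8α- to CD8α+ cells was -0.21 in WT and -0.73 in the knockout. Over all genes it was 0.01 and 0.02. Over the 4 genes measured on every WT array it was 0.06 in WT and -0.84 in the knockout. The WT median of the 7 thus rests in part on genes near or below 5. The subset and genotype comparisons share arrays, so their values are not independent of each other.

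**Figure D1:**
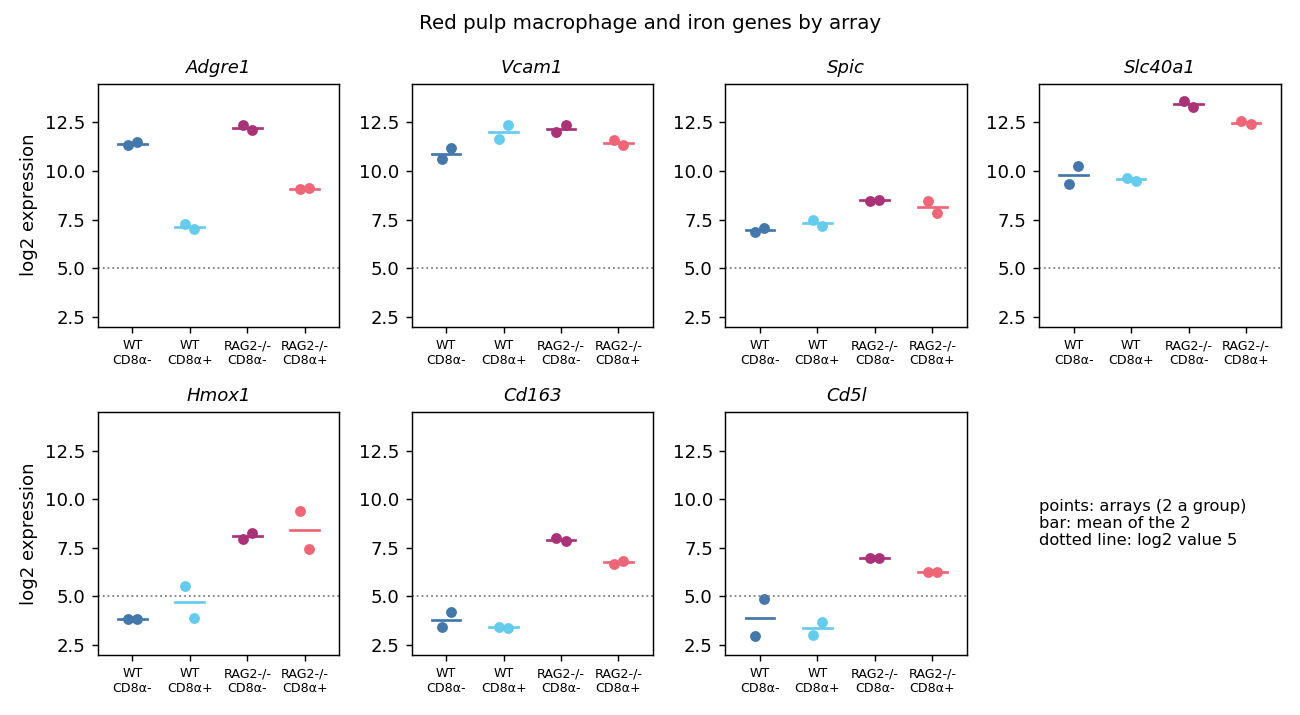
Log2 expression (vertical axis) of each gene on each array, with 1 panel a gene and 4 groups along the horizontal axis. Points are arrays, bars the mean of 2, and the dotted line marks the log2 value of 5. Cd163 and Cd5l lie below the line on all 4 WT arrays and above it on all 4 RAG2-/- arrays, while Adgre1 follows the subset more than the genotype.

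Adgre1, an adhesion G protein-coupled receptor that marks mature mouse macrophages, was the member that separated the subsets. It stood at 11.32 and 11.50 in WT CD8α- cells and at 7.28 and 7.01 in WT CD8α+ cells. The RAG2-/- values were 12.36 and 12.11 in CD8α- cells and 9.07 and 9.13 in CD8α+ cells. No array of any group overlapped with those of another, and the groups ran from RAG2-/- CD8α- through WT CD8α- and RAG2-/- CD8α+ down to WT CD8α+. From CD8α- to CD8α+ cells Adgre1 fell by 4.27 (SE 0.19, adjusted p = 4.0e-05, 19.2-fold) in WT and by 3.13 (SE 0.19, adjusted p = 0.000101, 8.78-fold) in the knockout. In the knockout it rose by 0.83 in CD8α- cells (SE 0.19, adjusted p = 0.0132) and by 1.96 in CD8α+ cells (SE 0.19, adjusted p = 0.00104). Leaving out WT CD8α- replicate 1 ended the CD8α- call (adjusted p = 0.0802), as did leaving out RAG2-/- CD8α- replicate 1 (0.0549). The rise was larger in CD8α+ cells by 1.13 (SE 0.26, unadjusted p = 0.00359), which did not pass the adjustment (adjusted p = 0.279).

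Vcam1, which binds the integrin α4β1 on lymphocytes and other leukocytes, ran in opposite directions between the subsets of the 2 genotypes. By its brightest probe set (1448162_at) it stood at 10.60 and 11.18 in WT CD8α- cells and at 11.64 and 12.36 in WT CD8α+ cells. In the knockout it stood at 12.01 and 12.36 in CD8α- cells and at 11.58 and 11.35 in CD8α+ cells. Both WT CD8α+ arrays lay above both WT CD8α- arrays, and both RAG2-/- CD8α+ arrays lay below both RAG2-/- CD8α- arrays. The difference from CD8α- to CD8α+ was 1.11 in WT (SE 0.31, adjusted p = 0.0519) and -0.72 in the knockout (SE 0.31, adjusted p = 0.148), and neither passed the test. Without WT CD8α+ replicate 1 the WT difference was 1.47 and passed (adjusted p = 0.0431). In CD8α- cells Vcam1 rose by 1.29 in the knockout (SE 0.31, adjusted p = 0.0162), a call lost without WT CD8α- replicate 1 (adjusted p = 0.106) or RAG2-/- CD8α- replicate 2 (0.0723), and also without either pair of RAG2-/- arrays with neutrophil (0.105) or red cell transcripts (0.106). In CD8α+ cells the change was -0.53 (SE 0.31, adjusted p = 0.215), with a 95% interval from -1.27 to 0.20, and it was 0.14 with arrays centred on their medians (adjusted p = 0.730).

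The test of the opposite subset differences of Vcam1 gave -1.83 (SE 0.44, 95% interval -2.87 to -0.79, unadjusted p = 0.00414), which did not pass the adjustment over all genes (adjusted p = 0.300). In this comparison of differences limma called 21 of the 8763 genes, 0.240%, and none of the 7. Of the 7, Adgre1 and Vcam1 had an unadjusted p under 0.05, as had 635 of all 8763 genes. The next probe set of Vcam1, 1415989_at, stood at 5.54 and 5.97 (WT CD8α-), 6.13 and 7.52 (WT CD8α+), 8.88 and 9.22 (RAG2-/- CD8α-) and 8.28 and 7.67 (RAG2-/- CD8α+). Its subset differences also lay in opposite directions, 1.07 and -1.07, and its knockout changes were 3.29 in CD8α- cells (adjusted p = 0.00384 over all probe sets) and 1.15 in CD8α+ cells (adjusted p = 0.0999). The third, 1451314_a_at, was dim, at 5.47 to 5.77 on the WT arrays and 3.36 to 4.59 on the RAG2-/- arrays, and was called lower in the knockout in both subsets (adjusted p = 0.0290 and 0.0481). Probe sets of this gene thus disagreed in the direction of the genotype difference, and which transcripts each reads is not given in the sources used here.

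Spic, the heme-induced factor of red pulp macrophages, was measured at 5 or more on all 8 arrays, and which cells of the sort its transcripts came from was not tested. Its brighter probe set (1418555_x_at) stood at 6.86 and 7.10 in WT CD8α- cells, 7.47 and 7.17 in WT CD8α+ cells, 8.45 and 8.52 in RAG2-/- CD8α- cells and 8.45 and 7.83 in RAG2-/- CD8α+ cells. All 4 RAG2-/- arrays were above all 4 WT arrays. It rose by 1.51 in the knockout in CD8α- cells (SE 0.25, adjusted p = 0.00430) and by 0.82 in CD8α+ cells (SE 0.25, adjusted p = 0.0384). The CD8α+ call was lost on leaving out either WT CD8α- array, either WT CD8α+ array or RAG2-/- CD8α+ replicate 1, with adjusted p from 0.0640 to 0.162. The other probe set of Spic, 1449134_s_at, stood between 6.07 and 7.48 on the 8 arrays with the genotypes overlapping, and its knockout changes were 0.02 (95% interval -1.32 to 1.35) and -0.04 (-1.37 to 1.29). With the mean of both probe sets, the changes were 0.76 (adjusted p = 0.136) and 0.39 (adjusted p = 0.423), so the Spic result rests on 1 of its 2 probe sets.

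**Figure D2:**
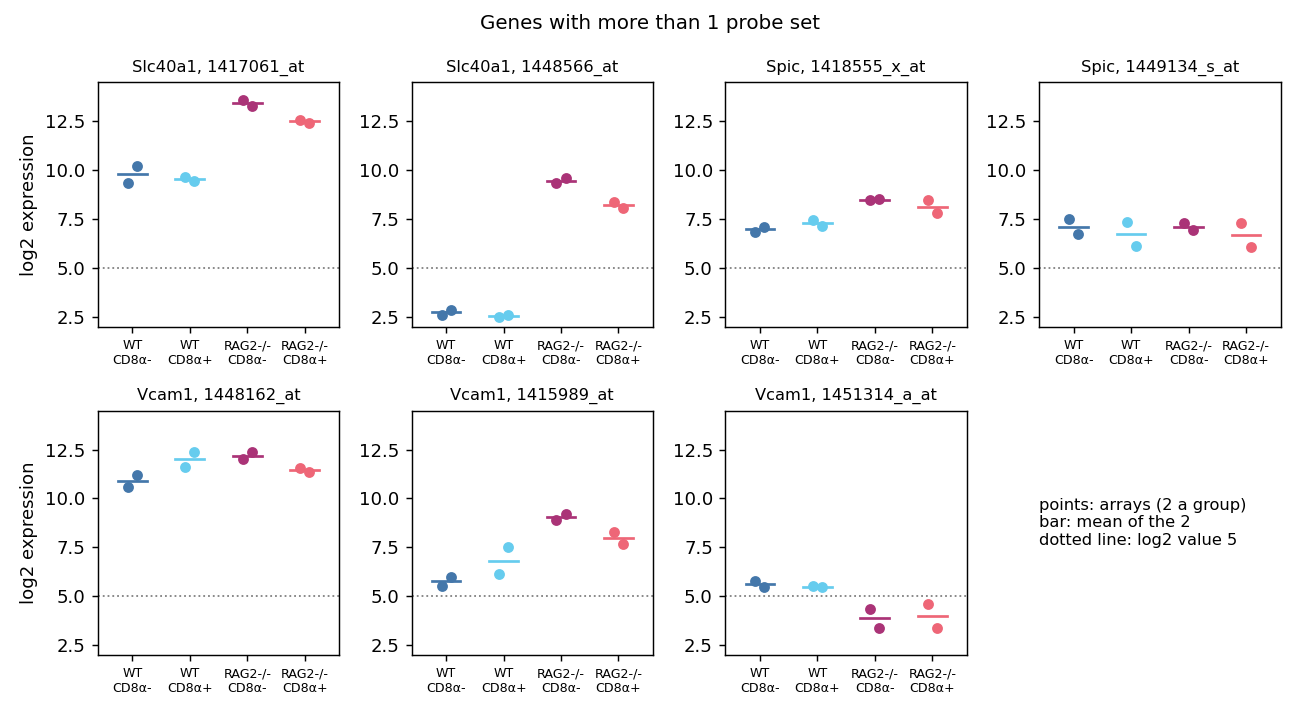
Log2 expression (vertical axis) by group (horizontal axis) for each probe set of Slc40a1, Spic and Vcam1, with 1 panel a probe set. Points are arrays, bars the mean of 2, and the dotted line marks the log2 value of 5. Both Slc40a1 probe sets are higher on all RAG2-/- arrays, 1449134_s_at of Spic shows no separation, and the dim Vcam1 probe set 1451314_a_at lies below 5 on the RAG2-/- arrays alone.

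Slc40a1, which exports iron, was measured on the arrays of both genotypes. Probe set 1417061_at stood at 9.33 and 10.24 in WT CD8α- cells and 9.67 and 9.47 in WT CD8α+ cells. In the knockout it stood at 13.59 and 13.31 in CD8α- cells and 12.58 and 12.42 in CD8α+ cells. WT subsets overlapped, the RAG2-/- subsets did not, and every RAG2-/- array lay above every WT array. Slc40a1 rose by 3.67 in CD8α- cells (SE 0.30, adjusted p = 0.000487, 12.7-fold) and by 2.93 in CD8α+ cells (SE 0.30, adjusted p = 0.00125, 7.62-fold), and both calls held on leaving out any single array. The knockout subset difference was -0.95 (SE 0.30, adjusted p = 0.0667) and was not called, but without either WT CD8α- array it was (adjusted p = 0.0280 and 0.0277).

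The second Slc40a1 probe set, 1448566_at, showed the same order from a lower base. It was below 3 on all 4 WT arrays (2.51 to 2.87) and stood at 9.36 and 9.58 in RAG2-/- CD8α- cells and 8.36 and 8.09 in RAG2-/- CD8α+ cells. Against a level of 5 it was at least 22.2-fold higher in CD8α- cells and at least 9.35-fold higher in CD8α+ cells of the knockout. With each probe set tested on its own, its knockout subset difference of -1.25 was called (adjusted p = 0.00873). Its level is not set against that of 1417061_at, since brightness differs between probe sets.

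Hmox1, which opens heme to biliverdin, iron and carbon monoxide, was near or below the measured level in WT cells. It stood at 3.85 on both WT CD8α- arrays and at 5.56 and 3.89 in WT CD8α+ cells. The RAG2-/- values were 7.97 and 8.29 in CD8α- cells and 9.38 and 7.47 in CD8α+ cells, so the CD8α+ groups were the most spread. Both subsets were higher in the knockout, CD8α- cells at least 8.75-fold against a level of 5, and CD8α+ cells by a difference of means of 3.70. The highest value, 9.38, is on a RAG2-/- array that held neutrophil transcripts. Without both such arrays the CD8α+ difference was 2.74. Subset differences of Hmox1 were 0.87 in WT and 0.29 in the knockout (SE 0.70), and neither passed the test (adjusted p = 0.481 and 0.806).

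Cd163, the hemoglobin scavenger receptor, was below 5 on all 4 WT arrays (3.40 to 4.19). It stood at 7.99 and 7.83 in RAG2-/- CD8α- cells and at 6.68 and 6.84 in RAG2-/- CD8α+ cells, and the RAG2-/- subsets did not overlap. The knockout was at least 7.52-fold higher in CD8α- cells and at least 3.38-fold higher in CD8α+ cells, against a level of 5. In the knockout Cd163 fell by 1.15 from CD8α- to CD8α+ cells (SE 0.26, adjusted p = 0.0211, 2.23-fold). Leaving out RAG2-/- CD8α- replicate 1 or either RAG2-/- CD8α+ array ended that call (adjusted p from 0.0673 to 0.101), as did leaving out either pair (0.149 and 0.104).

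Cd5l, a secreted protein of tissue macrophages of the scavenger receptor cysteine-rich family, was also below 5 in WT. The WT values were 2.94 and 4.85 in CD8α- and 3.02 and 3.70 in CD8α+ cells. It stood at 6.99 on both RAG2-/- CD8α- arrays and at 6.25 and 6.26 in RAG2-/- CD8α+ cells. The knockout was at least 3.98-fold higher in CD8α- cells and at least 2.39-fold higher in CD8α+ cells, against a level of 5. The subset difference in the knockout, -0.73 (SE 0.56), did not pass although the arrays did not overlap (adjusted p = 0.400). In 1 of 21 other settings this difference was called (adjusted p = 0.0104). The fit shares 1 spread among the groups, and the widest was that of the WT CD8α- arrays, which were below 5 (SD 1.35). The SD was 0.003 in RAG2-/- CD8α- and 0.007 in RAG2-/- CD8α+ cells.

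**Figure D3:**
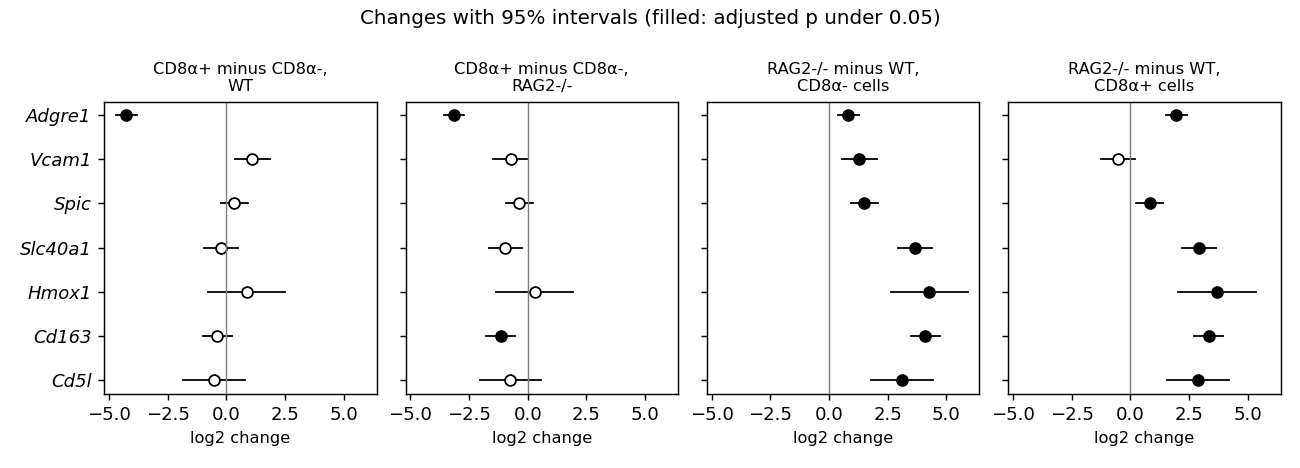
Log2 changes (horizontal axis) of the 7 genes in the 4 pairwise comparisons, with 95% intervals of the limma fit. Filled points have an adjusted p under 0.05. Among Adgre1, Vcam1, Spic and Slc40a1, the genotype panels are filled except for Vcam1 in CD8α+ cells, points of Hmox1, Cd163 and Cd5l there are no evidence since these genes were kept through their RAG2-/- arrays, and in the subset panels the filled points are Adgre1 in both genotypes and Cd163 in the knockout.

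All 4 genes measured on every WT array had both RAG2-/- CD8α- arrays above both WT CD8α- arrays, as had 42.6% of all genes tested. In CD8α+ cells the same held for 3 of the 4, Vcam1 being the exception, and for 39.7% of all genes. Across the 8 arrays Cd163 and Slc40a1 followed each other most closely within the set (Pearson r = 0.997), and Cd5l followed both (0.972 and 0.973). Adgre1 and Vcam1 were least alike (r = -0.17). These correlations are over 8 arrays that share a normalization within each genotype, and are a description only.

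Other markers of red pulp macrophages were read from a list of 10 further genes, of which 8 had a probe set of their own and 5 were tested. All 5 were called higher in the knockout in both subsets, beside 23.4% and 20.8% of all genes tested. Their median changes were 2.99 and 2.13. Fcna, a ficolin that binds microbial sugars, stood at 6.06 to 7.42 on the WT and 9.40 to 10.64 on the RAG2-/- arrays. The mannose receptor Mrc1 stood at 5.53 to 6.78 and 9.26 to 10.23, and the transporter Slco2b1 at 6.58 to 6.83 and 8.55 to 8.88. Hpgd, which breaks down prostaglandins, rose by 2.99 in CD8α- and by 1.20 in CD8α+ cells, and the lectin Clec4n by 1.63 and 2.13. On leaving out single arrays, 4 to 5 of the 5 were called in CD8α- and 3 to 5 in CD8α+ cells, with Hpgd and Clec4n the ones lost. Timd4 and Cd209f were below 5 on all 8 arrays.

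Core macrophage genes were also higher. Of 13 tested, all 13 were called higher in RAG2-/- CD8α- cells and 9 higher and 1 lower (Tlr4) in CD8α+ cells, with medians of 1.78 and 1.55. Called higher were 23.4% and 20.8% of all genes tested, and 16.1% were called lower in CD8α+ cells. The complement genes C1qa and C1qc stood at 2.08 to 4.45 on WT and at 6.08 to 9.97 on RAG2-/- arrays, and the endotoxin coreceptor Cd14 at 2.17 to 2.53 and 8.38 to 10.39. Fcgr1, the high-affinity IgG receptor, reached 6.17 on RAG2-/- CD8α- replicate 2 and was below 2.40 on the WT and RAG2-/- CD8α+ arrays. These 4 genes, with Hacd4 and Axl, were below 5 on every WT array and entered the count through RAG2-/- arrays, so their calls are no evidence. The counts and medians of this list include them. The other genes tested were Cd68, Lyz2, Tcn2, C1qb, Tbxas1, Glul and Tlr4. In CD8α- cells all of these were called higher, by 0.90 (C1qb) to 1.78 (Cd68). In CD8α+ cells Tlr4 changed by -0.87, and the rest were called higher, by 0.95 (Tbxas1) to 1.85 (Cd68). The summed level of the whole list of 16 genes, given as the log2 of the sum, ran from 11.75 to 12.48 on the WT and 13.34 to 14.18 on the RAG2-/- arrays. The summed level of the 7 genes themselves ran from 12.10 to 12.69 and from 13.17 to 14.47. On leaving out single arrays, 9 to 13 of the core macrophage genes were called higher in CD8α- and 6 to 10 in CD8α+ cells. Their part in the members' values was not tested.

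Of 6 monocyte genes tested, 6 were called higher in RAG2-/- CD8α- cells, 3 to 5 on leaving out single arrays, and 2 were called higher in CD8α+ cells. The shares of all genes tested called higher were 23.4% and 20.8%. Csf1r, the receptor for the macrophage growth factor, rose by 2.81 and 2.72. The marginal zone macrophage lectin Cd209b stood at 7.31 and 7.12 in RAG2-/- CD8α- cells and below 2.34 on the other 6 arrays, while Marco and Siglec1 of the same list were below 3 on all 8. Stab2, a scavenger receptor of sinusoidal endothelium, stood at 7.42 to 9.10 on RAG2-/- and 3.34 to 3.65 on WT arrays, whereas the endothelial genes Pecam1, Cdh5, Kdr and Tek were below 3 on all 8. Vwf, another endothelial gene of that list, was measured and tested. It was called higher in CD8α+ than in CD8α- cells of WT, by 1.84. Its genotype changes, 0.91 in CD8α- and 0.35 in CD8α+ cells, were not called. Hemoglobin Hba-a1 was below 2.5 on all 8 arrays. The summed level of the neutrophil list ran from 5.83 to 6.34 on the WT and from 6.13 to 13.03 on the RAG2-/- arrays, and that of the red cell list from 9.78 to 11.65 and from 9.35 to 12.07. The red cell list includes the transferrin receptor Tfrc, which alone stood at 9.53 to 11.44 on the WT and 8.49 to 11.51 on the RAG2-/- arrays. On the WT arrays that sum is therefore mostly Tfrc, and 7 of the 10 genes summed were below 5 on all 8 arrays.

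B and plasma cell transcripts ran the other way, with 4 and 5 of 5 tested genes called lower in the knockout in CD8α- and CD8α+ cells and summed levels of 13.34 to 13.91 on the WT and 12.15 to 12.50 on the RAG2-/- arrays. On leaving out single arrays, 2 to 4 and 2 to 5 of them were called. The shares of all genes tested called lower were 17.1% and 16.1%. Of this list 5 genes were at 5 or more on each WT array, and 2 to 3 on each RAG2-/- array. Tested genes below 5 on the RAG2-/- arrays were kept through the WT arrays, so their lower calls are no evidence. The 8 shared conventional dendritic cell genes were all measured on all 8 arrays, with 4 called higher in CD8α- and 3 in CD8α+ cells. Their median changes were 0.85 and 0.56, and the shares of all genes called higher 23.4% and 20.8%. On leaving out single arrays 3 to 5 and 0 to 4 were called, without the arrays with red cell transcripts 4 and 0, and with arrays centred on their medians 7 and 8. Their summed level ran from 16.75 to 16.87 on the WT and 17.11 to 17.62 on the RAG2-/- arrays.

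**Figure D4:**
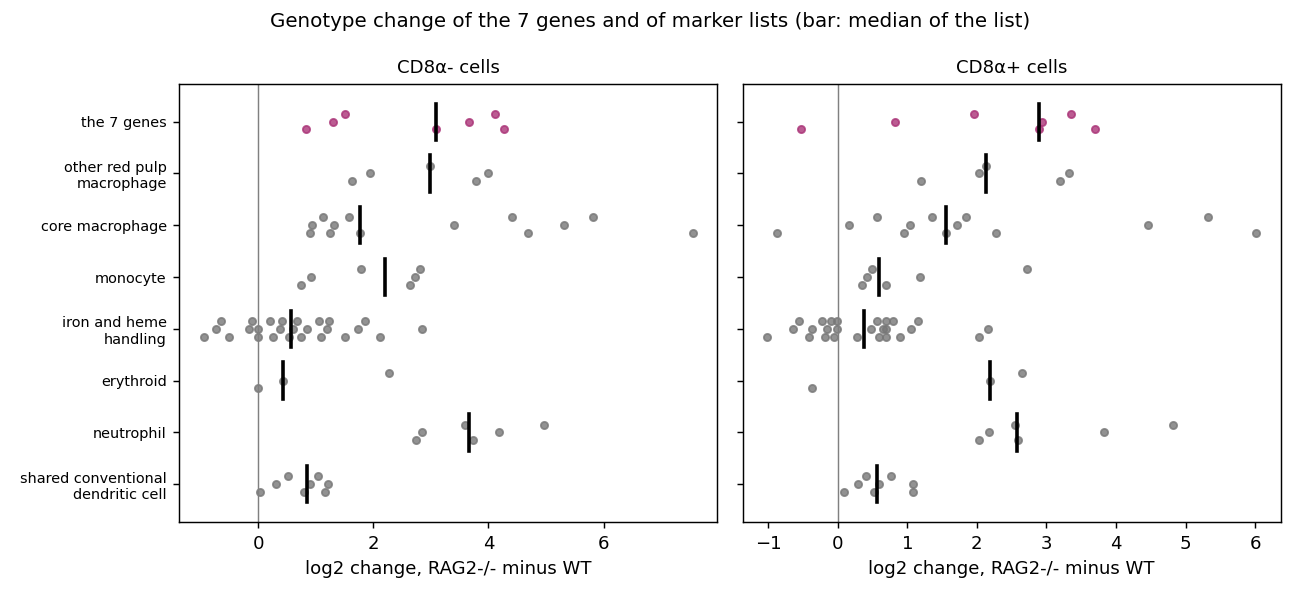
Log2 change from WT to RAG2-/- (horizontal axis) of each gene tested, by list (vertical axis), in CD8α- cells (left) and CD8α+ cells (right). Points are genes and bars the median of a list. The bar of the 7 genes, at 3.10 and 2.90, is the value of Cd5l, which was below 5 on every WT array, and the bars of the iron and heme list are at 0.57 and 0.37.

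Genes of iron and heme handling were called in both directions. Of a list of 38 genes, 36 had a probe set of their own and 26 were tested, of which 11 were called higher and 2 lower in RAG2-/- CD8α- cells and 7 higher and 1 lower in CD8α+ cells. The medians were 0.57 and 0.37. The shares of all genes tested were 23.4% higher and 17.1% lower in CD8α- cells, and 20.8% and 16.1% in CD8α+ cells. Among the genes called in both subsets was Blvrb, a biliverdin reductase that acts after heme oxygenase, which stood at 4.49 to 4.58 on the WT and 6.03 to 7.35 on the RAG2-/- arrays, and so entered through the latter. Slc48a1, which carries heme out of the phagosome, rose by 1.51 in CD8α- and by 0.80 in CD8α+ cells. Hfe, a sensor of the iron state, rose by 1.20 and 0.90, and Hmox2, the constitutive heme oxygenase, rose by 1.15 in CD8α+ cells. Ferritin heavy chain Fth1, which stores iron, had the opposite direction: it stood at 14.53 to 15.04 on the WT and 13.48 to 14.37 on the RAG2-/- arrays and fell by 0.72 in CD8α- and by 1.01 in CD8α+ cells. The heme exporter Flvcr1 fell by 0.94 in CD8α- cells.

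Calls on this list moved with single arrays. Leaving out each array in turn left 4 to 11 genes higher and 0 to 3 lower in CD8α- cells, and 3 to 9 higher and 1 to 4 lower in CD8α+ cells. Blvrb lost its CD8α- call without WT CD8α- replicate 1 (adjusted p = 0.0524) and Hfe its CD8α+ call without WT CD8α+ replicate 1 (0.0641). Without any of the 4 CD8α+ arrays Slc48a1 lost its CD8α+ call, and Fth1 and Flvcr1 lost their CD8α- calls without either WT CD8α- array or RAG2-/- CD8α- replicate 2. With each array centred on its median, 18 and 13 genes of the list were called higher, and the calls of Fth1 and Flvcr1 were lost.

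Several iron genes also differed between subsets. The transferrin receptor Tfrc, which takes up iron, fell by 1.84 in WT and by 2.22 in RAG2-/- CD8α+ cells relative to CD8α- cells. Flvcr1 fell by 2.01 and 1.62. The phagosomal metal transporter Slc11a1 was higher in CD8α+ cells, by 3.40 and 2.35. Bach1, a heme-sensing repressor of Hmox1, fell by 1.35 and by 1.77. In all, 1 gene of the list was called higher and 4 lower in CD8α+ cells of WT, and 2 higher and 8 lower in RAG2-/- cells, with the shares of all genes given above (9.23% higher and 7.87% lower, 11.1% and 10.7%). On leaving out single arrays, 1 to 5 were lower in WT and 4 to 6 in RAG2-/- cells, and 3 were lower in RAG2-/- cells without the arrays with neutrophil transcripts. The WT Tfrc call was lost without any of the 4 WT arrays, and the WT Bach1 call without WT CD8α- replicate 2 or CD8α+ replicate 2.

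Of 8 regulators known from red pulp macrophages that were tested, 2 were called higher in RAG2-/- CD8α- cells (Csf1r and Bach2) and 1 higher and 1 lower in CD8α+ cells (Csf1r and Irf4). Among all genes tested, 23.4% were called higher in CD8α- cells, and 20.8% higher and 16.1% lower in CD8α+ cells. Spi1, which encodes PU.1, stood at 9.74 to 10.64 on the WT and 10.72 to 11.64 on the RAG2-/- arrays and was not called. Bach2 lost its call on leaving out any WT array or either RAG2-/- CD8α- array. Irf8 was higher in CD8α+ cells by 3.79 in WT and 2.58 in the knockout, and Irf4 was lower by 2.51 and 4.69. The nuclear receptor Pparg was below 5 on all 8 arrays. The Irf8 call in the knockout was lost without either RAG2-/- CD8α+ array.

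Among relatives of Adgre1 in the EGF-TM7 family, Adgre4 had the same order of groups. It stood at 9.79 and 9.95 in WT CD8α-, 7.32 and 6.92 in WT CD8α+, 12.53 and 12.23 in RAG2-/- CD8α- and 9.60 and 9.46 in RAG2-/- CD8α+ cells, and its changes in all 4 pairwise comparisons were called with and without each single array. Adgre5, the leukocyte receptor CD97, stood at 11.99 to 12.41 on the WT and 12.79 to 13.29 on the RAG2-/- arrays. The scavenger receptor relative Cd5 changed by -0.61 in the knockout in CD8α- cells, not called, and by -1.64 in CD8α+ cells, called lower. That call was lost on leaving out any WT array or RAG2-/- CD8α+ replicate 1. From CD8α- to CD8α+ cells Cd5 changed by -2.57 in the knockout, called lower, and by -1.54 in WT, not called. Of 3 genes tested on this list, 2 were called higher in CD8α- cells (23.4% of all genes). In CD8α+ cells 1 was called higher and 1 lower (20.8% and 16.1%). Cd163l1, Cd6 and Dmbt1 were not measured at 5 on enough arrays to be tested. Of 8 tested partners and inducers of Vcam1, 4 were called higher in RAG2-/- CD8α- and 5 in CD8α+ cells, and 2 to 5 on leaving out single arrays in either subset. Beside these stand 23.4% and 20.8% of all genes tested called higher. Ltbr, counted among those called in CD8α+ cells, was kept through RAG2-/- arrays alone, so its call is no evidence. Tnfrsf1a, the tumor necrosis factor receptor that induces Vcam1, rose by 2.33 and 1.45, and the integrin chain Itga4 by 1.17 and 0.77.

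The genes most like each member over the 8 arrays were taken by Pearson correlation among all genes tested. For Adgre1 they were the lectins Clec4a2 (r = 0.998) and Clec4a3 (0.987) and Errfi1 (0.992). For Cd163 they were Slc40a1 (0.997), Kbtbd2 (0.995) and Nab1 (0.993), and for Slc40a1 they were Cd163, Nab1 (0.991) and Slfn5 (0.991). For Cd5l they were Tmem106c (0.990), the cobalamin carrier Tcn2 (0.988) and Agpat4 (0.984), and for Hmox1 Dda1 (0.981), Psen2 (0.980) and Mrpl35 (0.978). Spic was most like Dtwd1, Stx17 and Thoc2 (0.968 to 0.969). Vcam1 had looser neighbours, Gabarapl1 (0.923), AI413582 (0.916) and Sema6d (0.899). Genes that differ by genotype share the offset of the genotype's processing, so a high r here is a description of 8 arrays.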

How the data were processed

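The values used are the authors' deposited log2 expression values, one per probe set and array. Per the submitters' processing notes the tools were GCRMA and affy. Versions and the grouping of arrays in that step were not stated, and scanner files were not used here. Of 45101 probe sets, 34945 had 1 gene name, 932 several, 9160 none and 64 were controls. Values were used as deposited. Probe sets at log2 5 or more on at least 2 of 8 arrays were kept, and the probe set of highest mean stood for each gene, which left 8763 genes. The 4 groups were fitted with limma 3.58.1 in R 4.3.3 (4 residual degrees of freedom) in 5 comparisons: CD8α+ minus CD8α- in each genotype, RAG2-/- minus WT in each subset, and the difference of these. P-values are 2-sided and adjusted by Benjamini-Hochberg over all genes tested. Where the lower group was below 5 on each array, the fold is given as at least that against 5.

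The 7 genes, the lists and the tests were chosen with earlier results of these data known. All 11 probe sets of the 7 genes are described, as are some genes called on each list, defining markers, and the 3 genes most like each member. The choice of called genes was not strictly by size of change. On the iron and heme list Lrp1, Slc11a1 and Keap1, called higher in RAG2-/- CD8α- cells, are left out of the genotype description. Genes with no probe set of a single name (Ftl1, Trf and others) were not analysed here. No label says that replicates are separate mice, so p-values may measure technical spread, and the number of arrays limits the precision. Replicate numbers showed no pairing: differences between replicates correlated across groups at r from -0.15 to 0.11. Alternatives were other normalizations, filters, floors, offsets, probe set rules, variance models, a replicate block, and leaving out arrays. The fit was tested on simulated data. Promoter sequences are from RefSeq on GRCm38.p6. Figures were drawn with matplotlib 3.10.9.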

Additional observations from a re-analysis of the deposited data

Results flagged for a closer look

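By the brightest probe set of each, Vcam1 and Spic had both CD8α+ arrays above both CD8α- arrays in WT and below them in the knockout, so that the difference between subsets ran in opposite directions in the 2 genotypes. This order was shown by 1.05% of all genes tested. The rule for flagging took opposite differences of either order, which 2.05% of all genes tested had. The test of the difference between genotypes gave -1.83 for Vcam1 (limma, unadjusted p = 0.00414, adjusted p = 0.300). For Spic it gave -0.69 (unadjusted p = 0.0900, adjusted p = 0.747), and the highest RAG2-/- CD8α+ array lay only just below the lowest CD8α- array, both at 8.45. The other probe set of Spic had subset differences of -0.37 in WT and -0.43 in the knockout, and of the other probe sets of Vcam1, 1415989_at had 1.07 and -1.07 and 1451314_a_at -0.13 and 0.11.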

How the results depend on the processing

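Across the other settings (22 for most results), no called change of the 7 genes turned its direction. These settings used the brightest probe set of a gene or the mean of its probe sets. By 1451314_a_at alone, Vcam1 was called lower in the knockout, by 1.76 in CD8α- and by 1.51 in CD8α+ cells. Adgre1 between subsets in both genotypes and in CD8α+ cells between genotypes, and Slc40a1 between genotypes, were called in every setting. Counts of genotype calls over all 7 genes include Hmox1, Cd163 and Cd5l, kept through their RAG2-/- arrays, and support nothing: 7 in CD8α- cells, and 5 to 7 on leaving out single arrays. In CD8α+ cells 6 were called, 4 to 6 on leaving out single arrays, and 3 without the RAG2-/- arrays with neutrophil transcripts. Between WT subsets 1 was called, 2 with a filter at log2 7, an offset of 16, limma-trend or the replicate block, and 1 to 2 on leaving out single arrays. Between RAG2-/- subsets 2 were called, 1 with no filter and 1 without either pair of arrays with neutrophil or red cell transcripts, and 1 to 3 on leaving out single arrays. Leaving out these pairs was chosen after seeing the data. Replicate numbers did not pair the arrays. The replicate block moved Vcam1 between WT subsets to an adjusted p of 0.0374, and no other call of the 7.

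Small differences that were not called changed sign. Spic between WT subsets was -0.017 with the mean of its probe sets. Vcam1 between genotypes in CD8α+ cells was 0.14 with arrays centred on their medians. Hmox1 between RAG2-/- subsets was -0.50 without the arrays with neutrophil transcripts and -0.66 to 1.25 on leaving out single arrays. Its interaction was 0.011 with values below 5 set to 5, 0.54 without the arrays with red cell transcripts, and -1.53 to 0.38 on leaving out single arrays. Leaving out single arrays gave -1.49 to 0.42 for Cd5l and -0.67 to 0.24 for Slc40a1 between WT subsets, and -1.15 to 0.75 for the Cd5l interaction. The causes were not tested.

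Over all genes, median centring moved the median genotype change from 0.14 to 0.81 in CD8α- and from 0.09 to 0.78 in CD8α+ cells, and the share of calls that were higher from 57.7% and 56.4% to 90.5% and 91.3%. With no filter that share was 35.3% and 34.0%. Genes called between genotypes in CD8α- cells numbered 3548, against 10923 with no filter, 5301 with centring and 1625 without WT CD8α- replicate 1. In CD8α+ cells they numbered 3230, against 10678, 5106 and 1669 (without WT CD8α+ replicate 1). Between subsets they numbered 1499 in WT, 732 without WT CD8α- replicate 1, and 1909 in the knockout, 818 with only the groups compared. The interaction had 21, and 0 to 29 in other settings.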
